A study of Sus scrofa with 16 samples.

Results

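Genes of drug and xenobiotic metabolism were followed in the liver of pigs fed 1 of 3 fats. They were chosen by annotated symbol, as those beginning with CYP and a digit, UGT1, UGT2, GST, SULT, FMO or NAT, plus POR and EPHX1. The bile acid and sterol genes CYP7A1, CYP7B1, CYP8B1, CYP27A1 and CYP51A1 and pseudogenes were left out. Of 25880 gene identifiers, 14857 had a symbol and 54 of these matched. A gene was kept with 10 or more reads in 5 or more libraries, which left 28 of the 54. They were 3 CYP1, 5 CYP2 and 2 CYP4 genes, 5 GST and 4 SULT genes, 2 NAT genes, CYP39A1, POR, FMOD and genes of the FMO family. Some matched by letters alone. FMOD encodes fibromodulin, a matrix protein, and NAT10 acetylates RNA. Without FMOD and both NAT genes, 25 were left.

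The pigs were fatteners bred from (Polish Landrace × Polish Large White) sows and (Duroc × Pietrain) boars, kept singly from 60 to 118 kg on diets alike in energy and protein. Rapeseed oil was fed to 5 pigs (group R, of which 3 were gilts), beef tallow to 5 (group B, 2 gilts) and coconut oil to 6 (group C, 3 gilts), and the other pigs were barrows. No group went without an added fat, so each diet is read against another. One library of mRNA 3′ ends was made per pig.

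The liver clears foreign compounds in stages. In phase I, cytochromes P450 (CYP), which take electrons from POR, and flavin monooxygenases (FMO) add or expose a reactive group. In phase II, glutathione transferases (GST), sulfotransferases (SULT) and N-acetyltransferases (NAT) join that group to a water-soluble one, and transporters carry the product out. Many of these enzymes also act on fatty acids, steroids, bile acids or bilirubin, and nuclear receptors such as PXR (NR1I2), CAR (NR1I3) and PPARα (PPARA) control their genes.

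The 28 genes took 0.854% to 1.90% of the gene reads of a pig, which numbered 705669 to 1767671. A level is the TMM-normalized CPM (reads scaled to a common library size), and ± beside a mean level is the SD among the pigs on that diet. Log2 fold changes come from edgeR's quasi-likelihood test, with p-values adjusted over all genes by Benjamini-Hochberg (edgeR adjusted p), and ± beside them is the standard error. The first group named is the reference, so a positive value is higher in the second. Of the 7 hepatocyte markers, 6 were high and together reached 79088 to 213005 CPM, while SERPINA1 had at most 3 reads. Adipocyte markers summed to 1.03 to 15.9 CPM, with LEP at 0 in all 16 libraries, and cholangiocyte markers to 1.29 to 19.6 CPM. The library of pig 3 of group B stood apart, since without it the genes past the threshold in R vs. B went from 70 to 149 over all genes tested.

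A few genes carried most of the reads of the group. CYP2A19, the pig CYP2A enzyme that oxidizes coumarin and skatole, was the most abundant at a mean of 7927 CPM over the 16 pigs, which was 55.3% of the CPM of the 28 genes. CYP2E1, which oxidizes ethanol and small solvents, followed at 1890 CPM, and both together held 68.5%. A 3′ library gives about 1 read position per transcript, so these levels were not divided by gene length. Among the 28, 12 were over 100 CPM, 12 between 10 and 100, and 4 under 10.

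Below the leading P450s stood enzymes of both phases. GSTO1, which moves thiols and reduces dehydroascorbate, was at 837 CPM. FMO1 and FMO5 were at 769 and 605 CPM, and the steroid and bile acid sulfotransferase SULT2A1 was at 494 CPM. GSTK1, a transferase of mitochondria and peroxisomes, was at 425 CPM. CYP2D6, known for the oxidation of basic drugs, was at 326 CPM, and GSTZ1, the maleylacetoacetate isomerase of tyrosine breakdown, was at 215 CPM. CYP1A2 and CYP1A1, which oxidize aromatic compounds and are induced through AHR, were at 135 and 58.8 CPM. POR was at 14.0 CPM, and the vitamin D hydroxylase CYP2R1 was lowest at 5.76 CPM.

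**Figure D1:**
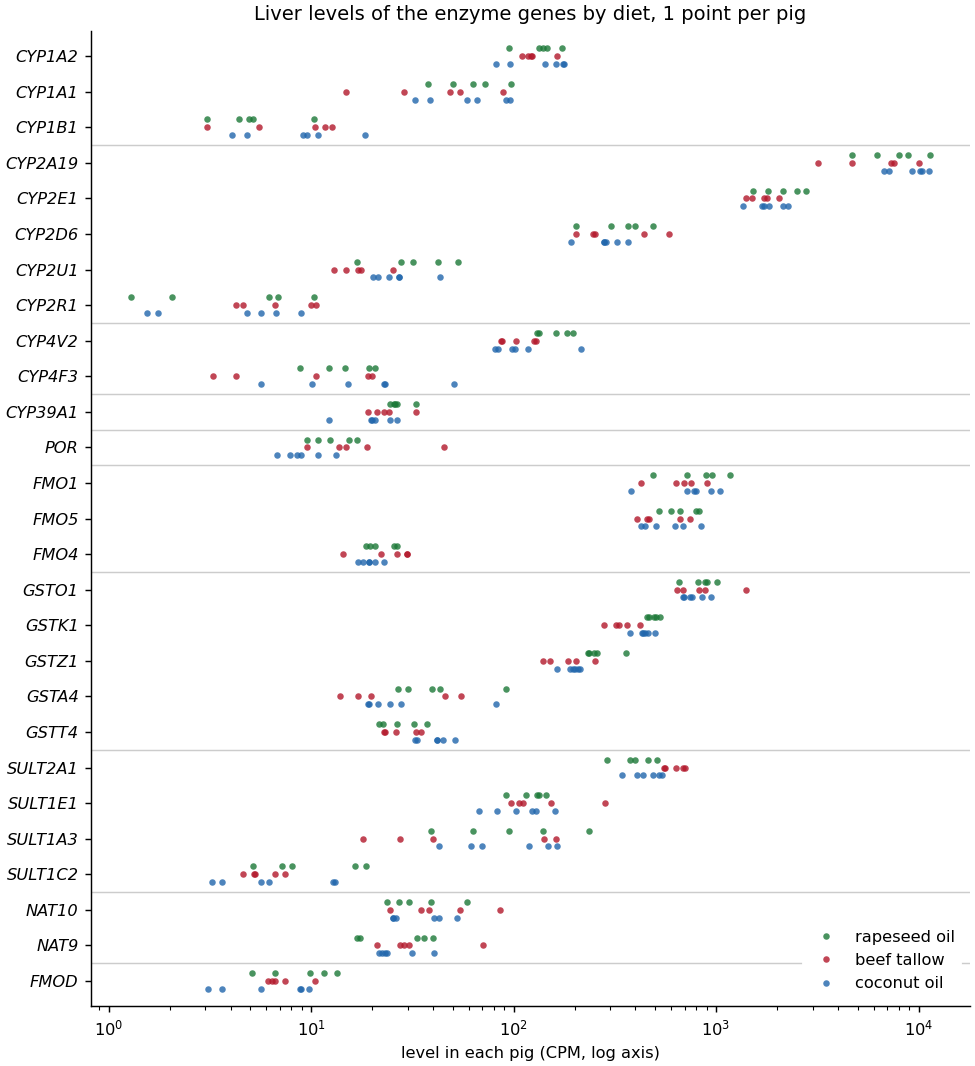
CPM on a log axis of 27 of the 28 genes in each pig, grouped by family, with 1 point per pig coloured by diet. CYP2A19 lies at 3179 to 11353 CPM and CYP2R1 is lowest on average, while points of the 3 diets are mixed for most genes.

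The 26 matched genes that were not kept had few or no reads. No read fell on 10 of them in any library, 12 had at most 5 reads in any library, and the other 4 reached at most 17. A count of 0 allows a level of up to 1.70 CPM in the deepest and 4.25 CPM in the shallowest library, counting 3 reads as the limit. This limit covers the sampling of reads alone. The hepatocyte marker SERPINA1 also had at most 3 reads, and whether few reads mean a scarce transcript was not tested. EPHX1, the microsomal epoxide hydrolase, had 0 to 3 reads per library. GSTM3 was nearest to being kept, with 10 or more reads in 4 libraries, and CYP2R1 and SULT1C2 were just inside with 6 each. No identifier carried a symbol beginning with UGT1, UGT2 or CYP3, so glucuronosyltransferases and the CYP3A enzymes are not analysed here. The matched genes also held no CYP2B, CYP2C or CYP4A gene and no GSTA1, GSTM1 or GSTP1. Family totals and shares therefore cover only the genes found by symbol, not whole families. Of the 28 genes kept, 21 had 10 or more reads in every library.

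Among phase I genes, the 5 kept CYP2 genes summed to 10355 ± 2783, 8618 ± 2791 and 11323 ± 2068 CPM in groups R, B and C. CYP2A19 made up most of this sum. CYP2A19 (ENSSSCG00000002993, chromosome 6, 49056579 to 49064111) was at 8825, 6211, 11353, 4703 and 7966 CPM in pigs 1 to 5 of group R. Its level was 4712, 7581, 7310, 3179 and 10009 CPM in group B, and 6767 to 11210 CPM with a median of 9724 in group C. The diets overlapped widely, and no pair differed beyond the spread between pigs. CYP2A19 had a log2 fold change of -0.25 ± 0.29 in R vs. B (edgeR adjusted p = 0.729), 0.23 ± 0.21 in R vs. C (0.722) and 0.49 ± 0.25 in B vs. C (0.469). CYP2E1 was at 2153 ± 506, 1689 ± 249 and 1839 ± 332 CPM in groups R, B and C, and its log2 fold change in R vs. B was -0.35 ± 0.19 (edgeR adjusted p = 0.393). CYP2D6 was at 351 ± 106, 346 ± 162 and 288 ± 57.9 CPM.

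CYP2U1 and CYP4V2, both fatty acid hydroxylases, were lower in group B than in group R at an unadjusted p below 0.05. CYP4V2 (ENSSSCG00000032687, chromosome 15, 47038078 to 47068315) was at 162, 184, 133, 130 and 198 CPM in group R and at 103, 126, 87.3, 129 and 86.3 CPM in group B. It ranged from 80.7 to 216 CPM in group C, with a median of 99.9. Every pig of group B lay below every pig of group R, while pig 2 of group C lay above all the others. CYP4V2 had a log2 fold change of -0.60 ± 0.19 in R vs. B (1.52-fold lower, edgeR adjusted p = 0.134) and -0.48 ± 0.23 in R vs. C (edgeR adjusted p = 0.383). Without pig 2 of group C, the latter was -0.75 (edgeR adjusted p = 0.105). CYP2U1 (ENSSSCG00000009151) was at 16.9, 27.7, 53, 31.9 and 42.3 CPM in group R and at 13.0, 14.9, 17.1, 25.5 and 17.7 CPM in group B. It was at 20.2 to 43.2 CPM in group C, with a median of 25.6. Pig 1 of group R lay within the range of group B, and the other 4 lay above it. CYP2U1 had a log2 fold change of -0.95 ± 0.30 in R vs. B (edgeR adjusted p = 0.141) and 0.61 ± 0.25 in B vs. C (0.376).

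POR (ENSSSCG00000038320, chromosome 3, 10212734 to 10272184), the reductase that passes electrons to the microsomal P450s, was at 9.56, 15.4, 16.8, 12.4 and 10.8 CPM in group R. In group B it was at 13.8, 14.9, 45.3, 9.56 and 18.8 CPM, and in group C at 6.76 to 13.3 CPM with a median of 8.73. The highest value belonged to pig 3 of group B, and the groups overlapped. In B vs. C the log2 fold change was -1.21 ± 0.37 (edgeR adjusted p = 0.257), and without that pig it was -0.65. The CPM rests on 7 to 69 reads per library. CYP39A1, an oxysterol hydroxylase, was at 27.2 ± 3.39, 24.1 ± 5.26 and 20.6 ± 4.98 CPM in groups R, B and C, with a log2 fold change of -0.42 ± 0.22 in R vs. C (edgeR adjusted p = 0.428).

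Like the phase I genes above, the remaining ones were called in no pair of diets by edgeR or DESeq2. CYP1A2 was at 137 ± 28.4, 127 ± 21.3 and 139 ± 41 CPM in groups R, B and C, and CYP1A1 at 64.2 ± 22.5, 47.2 ± 28.2 and 63.9 ± 26.2 CPM. CYP1B1 was at most 18.4 CPM in any pig. FMO1, which adds oxygen to nitrogen and sulfur of drugs, was at 844 ± 254, 683 ± 176 and 777 ± 228 CPM, and FMO5 at 682 ± 129, 548 ± 148 and 590 ± 161 CPM. FMO4 was at 22.2 ± 3.64, 24.5 ± 6.45 and 19.6 ± 2.05 CPM. For FMO1, FMO4 and FMO5, log2 fold changes ran from -0.31 to 0.19 over the 3 pairs, and none passed the test. CYP4F3, a hydroxylase of leukotrienes and fatty acids, was at 15.2 ± 4.90, 11.4 ± 7.90 and 21.3 ± 16 CPM.

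Among phase II genes, SULT2A1 and GSTK1 had the smallest p-values in R vs. B, with SULT2A1 higher and GSTK1 lower in group B. GSTK1 (ENSSSCG00000035615, chromosome 18, 6992623 to 6999068) was at 464, 457, 530, 507 and 492 CPM in group R and at 332, 419, 364, 320 and 279 CPM in group B. In group C it was at 375 to 499 CPM with a median of 440. Every pig of group B lay below every pig of group R, and group C overlapped both. The log2 fold change in R vs. B was -0.51 ± 0.16, or 1.43-fold lower, with an edgeR adjusted p of 0.125 and a DESeq2 adjusted p of 0.0223. In B vs. C it was 0.36 ± 0.15 (edgeR adjusted p = 0.376), and in R vs. C -0.15 ± 0.13 (0.668).

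SULT2A1 (ENSSSCG00000033207, chromosome 6, 53525496 to 53536723) was at 291, 462, 511, 375 and 396 CPM in group R and at 558, 633, 686, 554 and 703 CPM in group B. In group C it was at 345 to 543 CPM with a median of 461. Group B lay wholly above both other groups, which overlapped each other. The log2 fold change in R vs. B was 0.63 ± 0.18, or 1.54-fold higher, with an edgeR adjusted p of 0.0998 and a DESeq2 adjusted p of 0.0183. In B vs. C it was -0.45 ± 0.16 (edgeR adjusted p = 0.299, DESeq2 adjusted p = 0.0672). R vs. B and B vs. C share the pigs of group B, so they are not separate evidence.

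**Figure D2:**
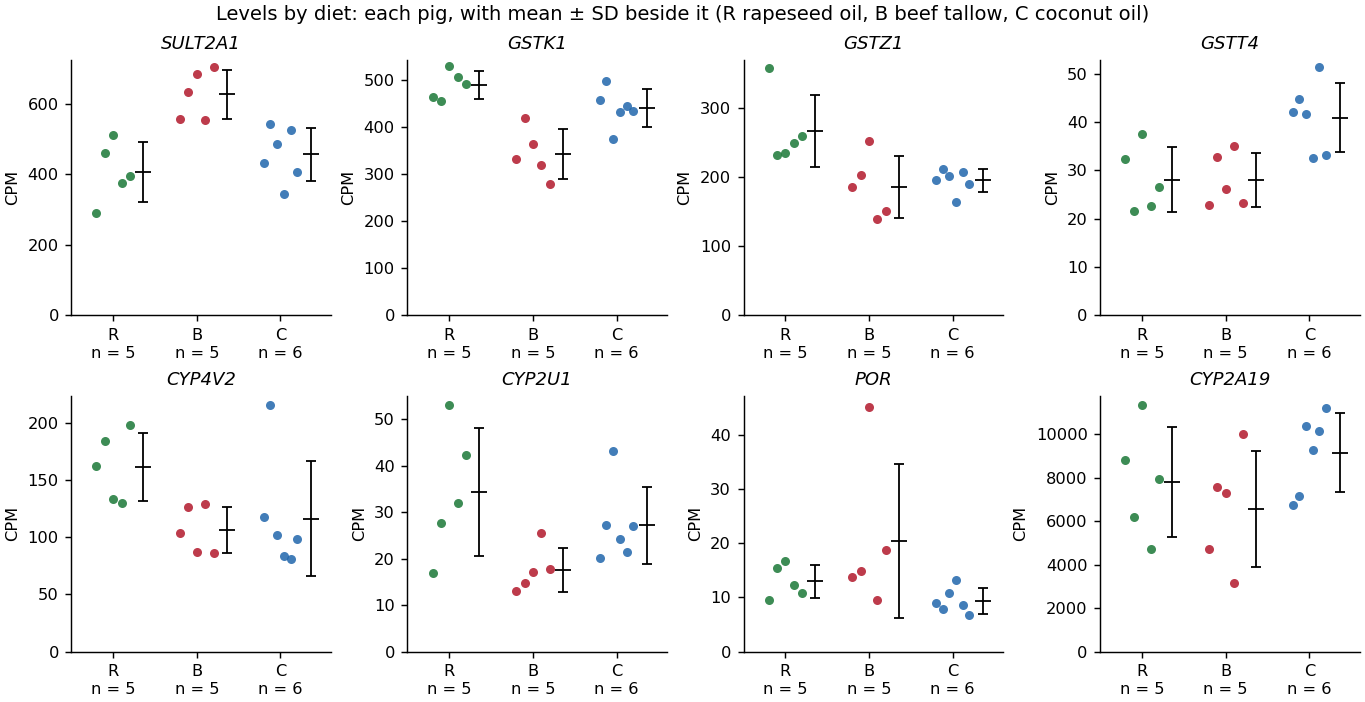
CPM per pig of the 7 enzyme genes with an unadjusted edgeR p below 0.05 in any pair of diets, and of CYP2A19, by diet, with the mean and SD. SULT2A1 in group B (554 to 703 CPM) lies above both other diets, GSTK1 in group B (279 to 419 CPM) lies below group R, and the high POR value of group B is 1 pig at 45.3 CPM.

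GSTZ1 (ENSSSCG00000002396, chromosome 7, 100392217 to 100404025) was at 359, 233, 235, 250 and 260 CPM in group R and at 186, 204, 252, 139 and 152 CPM in group B. In group C it was at 165 to 212 CPM with a median of 199. Group C lay wholly below group R, and pig 3 of group B lay within the range of group R. Its log2 fold change was -0.52 ± 0.20 in R vs. B (edgeR adjusted p = 0.212) and -0.46 ± 0.15 in R vs. C (0.206). Without pig 1 of group R, the highest, these were -0.39, no longer past an unadjusted 0.05, and -0.32.

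GSTT4 (ENSSSCG00000010065), a theta class transferase, was highest in group C. It was at 32.4, 21.5, 37.5, 22.7 and 26.6 CPM in group R and at 22.9, 32.9, 26.3, 35.1 and 23.2 CPM in group B. In group C it was at 32.7 to 51.3 CPM with a median of 41.9, overlapping the top of both other groups. Its log2 fold change was 0.54 ± 0.20 in R vs. C (edgeR adjusted p = 0.269) and 0.56 ± 0.20 in B vs. C (0.302), and these pairs share the pigs of group C. With counts thinned to the smallest library, it was 0.87 in R vs. C (edgeR adjusted p = 0.128).

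The other phase II genes overlapped between the diets, and so did NAT10, NAT9 and FMOD. GSTO1 was at 855 ± 133, 888 ± 306 and 781 ± 100 CPM in groups R, B and C. SULT1E1, the estrogen sulfotransferase, was at 123 ± 20.3, 150 ± 76.6 and 111 ± 33.6 CPM. SULT1A3, which sulfates phenols and catecholamines, was at 115 ± 77.9 and 77.9 ± 68.4 CPM in groups R and B and averaged 101 CPM in group C, between 42.9 and 165. NAT10 was at 35.8 ± 14.1, 47.6 ± 24.0 and 35.5 ± 11.5 CPM, and NAT9 at 28.8 ± 10.9, 35.8 ± 19.9 and 27.2 ± 7.42 CPM. SULT1C2, FMOD and the phase I gene CYP2R1 did not pass the count filter of edgeR in any pair of diets, and DESeq2 fitted them without giving an adjusted p.

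In R vs. B, edgeR tested 23 of the 28 genes and called 0 at an adjusted p below 0.05, while it called 1.11% of all genes tested. At an unadjusted p below 0.05, 5 of the 23 passed (SULT2A1, GSTK1, CYP4V2, CYP2U1 and GSTZ1), against 15% of all genes. DESeq2 called 2 of 24 with an adjusted p (SULT2A1 and GSTK1), against 3.24% of all genes. The CPM of 3 genes did not overlap between groups R and B (SULT2A1, GSTK1 and CYP4V2), against 4.57% of all genes. The log2 fold change was negative for 16 of the 23 and positive for 7, with a median of -0.25 over the 23 and 0.01 over all genes. By family, the median was -0.28 for 2 CYP1, -0.30 for 4 CYP2 and -0.50 for 2 CYP4 genes. It was -0.51 for 5 GST, -0.30 for 3 FMO, 0.36 for 2 NAT and 0.28 for 3 SULT genes. The log2 fold change was 0.72 for POR and -0.17 for CYP39A1. The 3 SULT genes ran from -0.57 to 0.63. SULT1C2, the SULT gene that edgeR did not test, had a DESeq2 log2 fold change of -0.95 (DESeq2 unadjusted p = 0.0475). The SULT median therefore does not show that this family was higher in group B. In a bulk sample, fewer cells of a type and less RNA per cell cannot be told apart. Markers of sinusoidal endothelium (3 of 5 matched) in groups R, B and C summed to 207 to 339, 321 to 373 and 274 to 364 CPM, and those of Kupffer cells (5 of 6 matched) to 534 to 953, 727 to 1397 and 468 to 720 CPM. Pericentral hepatocyte markers other than the enzyme genes (7 of 8 matched) summed to 1453 to 3001, 1103 to 1965 and 1337 to 2220 CPM. Most of that sum was RGN, with a median of 1473 CPM over all pigs. Periportal hepatocyte markers (7 of 8 matched) summed to 5306 to 9318, 6062 to 9806 and 5920 to 8635 CPM, with means of 7031, 8142 and 7753 CPM. The part of these cell types in the differences was not tested.

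**Figure D3:**
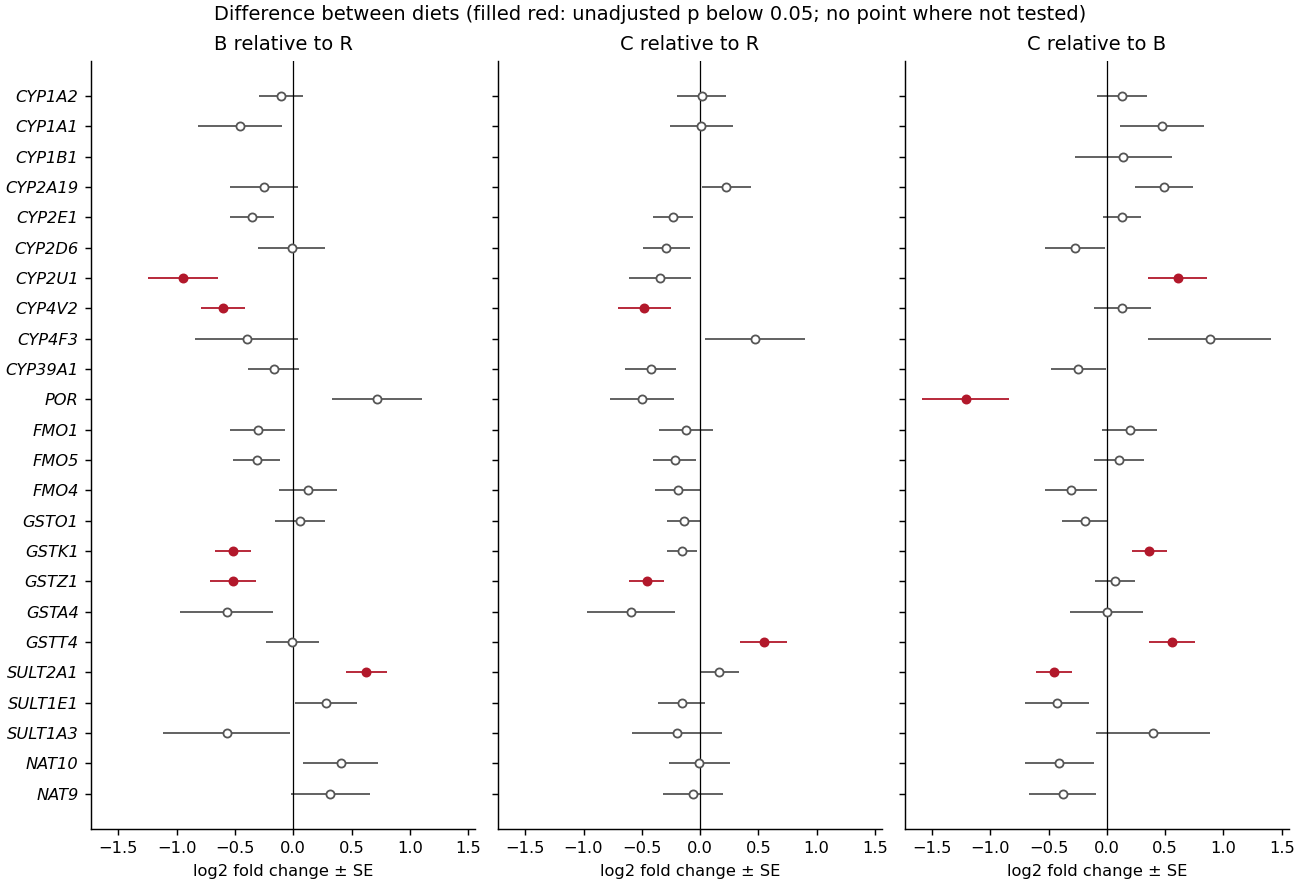
Log2 fold change with its standard error for the enzyme genes drawn in the 3 pairs of diets. In R vs. B 16 of 23 genes drawn lie below 0, in R vs. C 17 of 23 and in B vs. C 9 of 24, and 0 genes passed an edgeR adjusted p below 0.05 in any pair.

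In R vs. C, edgeR called 0 of 24 genes, against 0.138% of all genes. At an unadjusted p below 0.05, 3 of the 24 passed (GSTZ1, GSTT4 and CYP4V2), against 13.0% of all genes. DESeq2 called 0 of 18, against 2.61%. GSTZ1 was the 1 gene whose CPM did not overlap between the groups, against 1.46% of all genes. The median log2 fold change was -0.17, with 18 genes negative and 6 positive, while 49.9% of all genes were positive.

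In B vs. C, edgeR called 0 of 24 genes, against 0.0587% of all genes. At an unadjusted p below 0.05, 5 of the 24 passed (POR, SULT2A1, GSTT4, GSTK1 and CYP2U1), against 11.5% of all genes. DESeq2 called 0 of 13, against 2.46%. SULT2A1 was the 1 gene without overlap, against 1.45% of all genes. The median log2 fold change was 0.12, with 15 genes positive and 9 negative, while 49.6% of all genes were positive. Over the 28 genes, FMOD and both NAT genes included, the mean CPM was highest in group R for 15, in group B for 8 and in group C for 5. It was lowest in group B for 16. This order was not counted over all genes.

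Gilts and barrows did not differ past the threshold in any of the 23 enzyme genes tested over the 16 pigs, where edgeR called 0.0786% of all genes. At an unadjusted p below 0.05, 1 of the 23 passed, against 4.02% of all genes, and DESeq2 called 0 of 28, against 0.0694%. That gene was SULT1A3, at 70.8 ± 42.2 CPM in gilts and 126 ± 70.2 CPM in barrows (log2 fold change 0.83 ± 0.38, edgeR adjusted p = 0.998). The log2 fold change was -0.49 ± 0.24 for NAT10, -0.37 ± 0.20 for CYP2D6, -0.29 ± 0.16 for GSTZ1 and 0.30 ± 0.21 for SULT1E1.

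Pigs of 1 diet differed from each other far more in some enzyme genes than in others. For each gene the SD of log2 CPM within diets was set beside that of genes within 1.5-fold of its mean CPM, which could be done for 25 genes. The median percentile was 71.4, and 18 of the 25 were above the 50th.

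SULT1A3 (SD 1.06), CYP4F3 (0.905), GSTA4 (0.777) and CYP1A1 (0.713) were above the 90th percentile. SULT1A3 ranged 13.1-fold over the 16 pigs and CYP4F3 15.5-fold. GSTA4, which conjugates aldehydes from lipid peroxidation, was at 91.8 CPM in pig 3 of group R and 81.7 CPM in pig 3 of group C, and at 13.8 to 55.3 CPM in group B. At the other end, GSTK1 ranged 1.90-fold over all pigs with an SD of 0.155 (4.35th percentile), and FMO4 (0.277) and CYP39A1 (0.292) were also below the 10th.

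**Figure D4:**
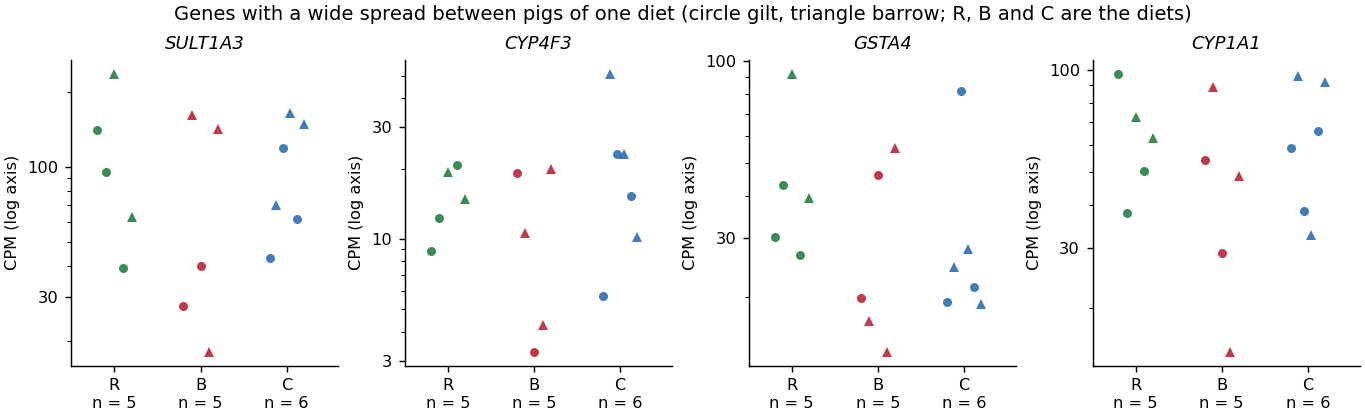
CPM per pig on a log axis of SULT1A3, CYP4F3, GSTA4 and CYP1A1, whose spread within diets was above the 90th percentile of genes of like level, by diet, with circles for gilts and triangles for barrows. The 3 diets overlap in each of them, and GSTA4 has 1 high pig in group R at 91.8 CPM and 1 in group C at 81.7 CPM.

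Other genes of the pathway were taken from a list of 78 regulators, cofactor suppliers, further enzymes and transporters, of which 65 had a symbol in the files and 50 were tested. edgeR called 1 of the 50 in R vs. B, against 1.11% of all genes, and 0 in R vs. C, B vs. C and between the sexes, against 0.138%, 0.0587% and 0.0786%. GCLC, which catalyses the first step of glutathione synthesis, fell by 1.34 ± 0.27 on the log2 scale (edgeR adjusted p = 0.0285). It was at 43.4, 23.6, 44.0, 23.7 and 38.4 CPM in group R, at 9.93, 11.7, 17.1, 13.8 and 15.5 CPM in group B. Group C ranged from 12.8 to 25.1 CPM with a median of 21.7. Every pig of group B lay below every pig of group R. This call was kept in 3 of the 10 fits that left out 1 pig. It was lost without pig 1, 3 or 5 of group R or pig 1, 2, 4 or 5 of group B, and the edgeR or DESeq2 adjusted p over all alternatives lay between 0.0027 and 0.0878 (0.0538 with the replicate number as a block).

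At an unadjusted p below 0.05, 4 of the 50 were higher and 14 lower in R vs. B, 2 higher and 7 lower in R vs. C, and 11 higher and 2 lower in B vs. C. In either direction, 15%, 13.0% and 11.5% of all genes passed in these pairs. Of the 16 other phase I enzymes, 4 were lower in R vs. B, with a list median of -0.31, and of 10 other phase II enzymes 5 were lower and 1 higher, with a median of -0.41, beside the 15% of all genes that passed in that pair. ADH4, an alcohol dehydrogenase, was at 1738 ± 718 CPM in group R and 831 ± 345 CPM in group B (log2 fold change -1.07, edgeR adjusted p = 0.108, DESeq2 adjusted p = 0.0273). ALDH1A1, which oxidizes retinaldehyde, was at 3789 ± 794 and 2276 ± 218 CPM (-0.74, edgeR adjusted p = 0.0577, DESeq2 adjusted p = 0.0018). UGP2, which makes UDP-glucose, was at 971 ± 61.2 and 1517 ± 312 CPM (0.64, edgeR adjusted p = 0.0777, DESeq2 adjusted p = 0.0054). HNMT, the histamine methyltransferase, was at 20.8 ± 4.26 and 8.66 ± 3.28 CPM (-1.24, edgeR adjusted p = 0.0563, DESeq2 adjusted p = 0.0268).

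ALAS1, which catalyses the first step of heme synthesis and so feeds all P450s, was at 62.6 ± 33.1, 146 ± 80.6 and 178 ± 61.4 CPM in groups R, B and C. Its log2 fold change in R vs. C was 1.5 ± 0.30 (edgeR adjusted p = 0.0530, DESeq2 adjusted p = 0.00055). The regulators were not called in any pair, with 1 higher and 2 lower of 11 at an unadjusted p below 0.05 in R vs. B, where 15% of all genes passed. HNF4A was at 350 ± 152 CPM in group R and 497 ± 44.3 CPM in group B (edgeR adjusted p = 0.323). NR1I2 was at 115 ± 18.7 and 81.5 ± 20.3 CPM (edgeR adjusted p = 0.251). PGRMC1, with the smallest p of the regulators in this pair, was at 1197 ± 188 and 806 ± 171 CPM (edgeR adjusted p = 0.141, DESeq2 adjusted p = 0.0554). Of 5 transporters tested, the uptake carrier SLC22A7 was at 55.2 CPM in group R and at 33.8 CPM in group B (edgeR adjusted p = 0.202).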

How the data were processed

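Liver RNA of 16 pigs was sequenced as mRNA 3′ ends. The deposited values are raw counts per Ensembl gene, which the authors obtained with HTSeq-count after FastQC checks, FLEXBAR trimming and TopHat mapping to Sscrofa11.1. The 5 tallies of reads on no gene in each file were left out. Reads with several alignments (15.4% to 38.1% of those tallied) went uncounted, which leaves the levels of near-identical copies (CYP2A19, CYP2D6, SULT1A3 and GST genes) uncertain.

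Each pair of diets was fitted on its own without covariates by edgeR 4.0.16 in R 4.3.3, with TMM and filterByExpr (minimum count 10, minimum total 15), and p-values were adjusted by Benjamini-Hochberg with a threshold of 0.05. The sexes were compared over all pigs. The fits were tested on simulated data, with the same dispersion for every gene and larger fold changes than most enzyme genes showed. That test does not show how often smaller differences are found. No pair of libraries among 120 was identical. The members and lists were chosen with earlier results of these data known. Values are given for genes past the threshold by edgeR or DESeq2 1.42.0, the 3 highest of each family, the 5 smallest p-values of each comparison, POR and EPHX1. Some genes are not reported here on their own, although they entered the fits and the counts of genes. GSTA4 and the pathway genes were named with their values already in view. Positions are those of RefSeq on Sscrofa11.1, matched by symbol for 22 of 28 genes. Alternatives were DESeq2, RLE, no or a stricter count filter, a joint fit of all pigs, a covariate for sex (for diet between the sexes), a replicate block, leaving out each pig and thinned counts. Counts of genes at an unadjusted p below 0.05 were added after the data were seen. The errors given hold the spread between pigs and the sampling of reads together.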

Additional observations from a re-analysis of the deposited data

Results flagged for a closer look

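A pig far from the others of its diet was looked for in 81 groups (27 genes in 3 diets) by the gap to the nearest pig over the range of the group. It was found in 10 groups of 9 genes. For normally distributed values chance alone would flag about 1 group in 20. The CPM were not transformed, so that rate need not hold here and the 10 groups are not read as an excess. Each was the highest pig of its diet. Pig 3 of group B was apart in POR (45.3 CPM, next 18.8). Pig 2 of that group was apart in CYP1A2 (164 CPM, next 123) and pig 5 in NAT9 (70.8 CPM, next 30.6). In group R, pig 1 was apart in GSTZ1 (359 CPM, next 260) and CYP39A1 (33.1 CPM, next 26.7), pig 3 in GSTA4 (91.8 CPM, next 43.1) and pig 4 in CYP1B1 (10.3 CPM, next 5.17). In group C, pig 3 was apart in GSTA4 (81.7 CPM, next 27.8) and CYP2U1 (43.2 CPM, next 27.2), and pig 2 in CYP4V2 (216 CPM, next 117).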

How the results depend on the processing

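The number of enzyme genes past an edgeR adjusted p of 0.05 was 0 in each comparison, and it was 0 in 61 of 62 alternatives. DESeq2 in R vs. B called 2, SULT2A1 and GSTK1, and the cause was not tested. Over the alternatives, the log2 fold change in R vs. B ran from 0.53 to 0.72 for SULT2A1 (adjusted p 0.0183 to 0.213) and from -0.61 to -0.45 for GSTK1 (0.0223 to 0.269). No fold change reversed among enzyme genes at an unadjusted p below 0.05 in their comparison or pathway genes called by edgeR or DESeq2. The other enzyme genes were not followed singly, and some changed sign. In B vs. C, 15 were positive and 9 negative, and with RLE 14 and 10. The number of genes at an unadjusted p below 0.05 was 4 to 7 in R vs. B, 2 to 3 in R vs. C and 4 to 7 in B vs. C when each pig was left out. Without pig 3 of group B it was 6 in R vs. B and 6 in B vs. C. With no filter on low counts it was 10, 4 and 7. CYP4V2 in R vs. C was above an unadjusted p of 0.05 in most fits that left out a pig, with p from 0.00045 (without pig 2 of group C) to 0.115. GSTT4 in R vs. C went from 0.54 to 0.87 on the log2 scale with thinned counts, and the cause was not tested. ALAS1 in R vs. C passed in 7 of the alternatives, with an adjusted p of 2.6e-05 to 0.153.

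With the replicate block, 0 enzyme genes passed in each pair of diets, and the number at an unadjusted p below 0.05 was 6, 4 and 4. Deviations of same-numbered pigs correlated at -0.09 to 0.14 in R and B, -0.01 to 0.11 in R and C and -0.24 to 0.09 in B and C. Pigs with different numbers were not correlated, so these values cannot decide whether the numbers pair the pigs. Genes under 10 CPM, such as CYP2R1, rest on few reads per library, and a p above the threshold does not show equal levels.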

Other observations

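Neighbouring genes were compared across the 16 pigs in 2 relations, by permutation tests on log2 CPM. CYP1A1 (chromosome 7, 58802887 to 58809155) and CYP1A2 (chromosome 7, 58779529 to 58786155) correlated at r = 0.0855 (permutation p = 0.753, Benjamini-Hochberg adjusted 0.753) and rho = 0.147 (permutation p = 0.587). Within diets r was 0.0414. The r across diets was -0.0254 without the 2 pigs farthest from the median of CYP1A1. FMO1 and FMO4, also adjacent on chromosome 9, correlated at r = 0.284 (permutation p = 0.288, adjusted 0.575) and rho = 0.156 (permutation p = 0.562). Within diets r was 0.379. The r across diets was -0.101 without the 2 pigs farthest from the median of FMO1. Neither pair showed a relation beyond the spread of these pigs.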
